A study of Arabidopsis thaliana with 4 samples.

Results

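Nuclei with open root cap marker loci were picked out of the root tips of the Arabidopsis thaliana accession Col-0 by the accessibility of 7 genes. The 10x multiome assay measured open chromatin (ATAC) and RNA together in single nuclei. A transposase first cut accessible DNA in nuclei in bulk, each nucleus was then held in a droplet, and each ATAC count is a cut site in a called peak. For each nucleus the share of its ATAC counts that lay in peaks over the bodies or the 2 kb upstream of the 7 genes was taken as a score, and the 5% of nuclei with the highest score in each library were kept. There were 1443 such nuclei, called the chosen nuclei from here on, of 28869 nuclei with 3000 to 100000 ATAC counts and 1000 to 25000 RNA counts. The chosen nuclei numbered 431 of 8613 and 420 of 8399 in stress replicates 1 and 2, and 211 of 4229 and 381 of 7628 in control replicates 1 and 2, which left 27426 other nuclei. Stress plants grew on medium with added sorbitol, which draws water from the roots, and control plants on the same medium without it. Both groups were wild type with no transgene or mutation, and both gave root tips of 5 mm, which hold several cell types. Each group had 2 libraries. The study calls these biological replicates, while the labels do not say whether they came from separate cultures, so p-values measure the spread between libraries, which may in part be technical.

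The root cap covers the growing tip of the root. It consists of the columella, which senses gravity, and the lateral root cap, which flanks it, and its outer cells are shed or die while new layers form beneath them. Of the 7 genes, SMB (SOMBRERO), BRN1 (BEARSKIN1, NAC015) and BRN2 (BEARSKIN2, NAC070) encode NAC transcription factors that drive the maturation of root cap cells. RCPG encodes a polygalacturonase and CEL5 a cellulase, enzymes that loosen the wall when root cap cells separate. BFN1, a nuclease, and PASPA3 (AT4G04460), an aspartic protease, act in the programmed death of these cells.

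The peaks that stood for the 7 genes were few and mostly did not cover their starts. BRN2 had no peak in its body or upstream window in any library, so it added nothing to the score. RCPG (AT1G65570) had no peak in stress replicate 1 and 1 peak in each other library. Across libraries the marker peaks merged into 10 regions, 8 of which had a peak in all 4 libraries. Of these 8 shared regions, 2 covered the start of their own marker, at BFN1 and PASPA3, and 4 covered the start of a neighbouring gene. In 6 of the 8 the nearest start was that of a neighbour. The region at BFN1 (chr1:3752767-3753679 on TAIR10) covered the starts of both BFN1 and AT1G11200, which point away from each other. The regions at BRN1 (chr1:12069883-12070795 and chr1:12073582-12074494) covered the starts of AT1G33270 and AT1G33290, upstream and downstream of it. The regions at SMB (chr1:29944934-29945587 and chr1:29945712-29946578) lay upstream of it, and the farther of the pair covered the start of SYP52, which encodes a syntaxin. CEL5 had a region over its last bases and beyond (chr1:8097439-8098199), and PASPA3 had a region upstream (chr4:2222812-2223742) and another over its start (chr4:2224075-2224827).

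Windows of 150 bases from 5 of these regions are given, since counts in them decided which nuclei were chosen. They were read from the RefSeq sequence of TAIR10.1, plus strand, inside the regions at BFN1 (chr1:3753063-3753212), CEL5 (chr1:8097791-8097940), BRN1 (chr1:12074125-12074274), SMB (chr1:29945185-29945334) and PASPA3 (chr4:2224272-2224421). Capitals mark CACG, the core of sites that NAC factors bind, on either strand.
BFN1: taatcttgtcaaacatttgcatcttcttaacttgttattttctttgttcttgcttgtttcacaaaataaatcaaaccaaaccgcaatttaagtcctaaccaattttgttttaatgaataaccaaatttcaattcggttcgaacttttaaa
CEL5: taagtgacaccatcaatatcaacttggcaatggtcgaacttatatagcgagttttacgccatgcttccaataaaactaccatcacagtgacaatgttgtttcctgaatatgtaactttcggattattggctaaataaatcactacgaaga
BRN1: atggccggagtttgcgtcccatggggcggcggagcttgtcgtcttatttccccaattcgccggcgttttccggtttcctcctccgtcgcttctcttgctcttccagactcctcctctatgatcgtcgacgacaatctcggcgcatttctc
SMB: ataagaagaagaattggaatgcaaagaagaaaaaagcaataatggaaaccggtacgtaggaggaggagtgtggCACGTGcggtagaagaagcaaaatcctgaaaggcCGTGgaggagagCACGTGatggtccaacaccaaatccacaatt
PASPA3: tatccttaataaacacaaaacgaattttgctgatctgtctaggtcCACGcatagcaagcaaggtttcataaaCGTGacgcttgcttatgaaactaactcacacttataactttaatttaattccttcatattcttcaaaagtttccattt
The SMB window had 5 matches, of which adjoining matches share bases where CACGTG reads the same on both strands, and the PASPA3 window had 2. The BFN1, CEL5 and BRN1 windows had 0 matches. Those labelled CEL5 and BRN1 lie wholly past the ends of these genes, so they say nothing of the gene bodies or their upstream sequence. Of 17747 windows of the same length at the centres of shared regions, 41.3% held the motif at least once, and a match is a description of the letters only.

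The score rested on few counts. Chosen nuclei had a median of 5 and 4 counts in marker windows in stress replicates 1 and 2, and of 6 and 5 in control replicates 1 and 2, and most cut sites came as pairs, since 73.7% to 75.9% of ATAC values were even. A count at 2 of the markers was the commonest case, in 56.6% and 56.9% of the chosen nuclei of stress replicates 1 and 2 and in 46.4% and 52.5% of those of control replicates 1 and 2. Among the other nuclei, 46.1% and 45.8% in the stress libraries and 28.2% and 44.1% in the control libraries had no count in any marker window. The lowest chosen score was 0.0844% and 0.0840% of a nucleus's counts in stress replicates 1 and 2, and 0.100% and 0.0844% in control replicates 1 and 2. The 5 nuclei just outside each limit had 0.0840% to 0.0843% and 0.0838% in the stress libraries, and 0.0997% to 0.0998% and 0.0841% to 0.0843% in the control libraries. The score was continuous across that limit, and the chosen nuclei are the upper end of a range.

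Because the rule used the marker windows, their counts are given as a description. The BRN1 windows held 287.5 and 257.6 CPM (counts in each 1000000 ATAC counts of the class and library) in the chosen nuclei of the stress libraries and 277.6 and 276.7 in those of the control libraries, against 49.8 and 51.4 (stress) and 65.3 and 52.8 (control) in other nuclei. The CEL5 window held 239.8 and 224.2 (stress) and 213.5 and 253.7 CPM (control) in chosen nuclei, against 50.5 and 47.1 (stress) and 58.2 and 53.7 (control) in other nuclei. PASPA3 windows held 221.9 and 241.1 (stress) and 186.3 and 196.0 CPM (control) in chosen nuclei, against 48.8 and 47.6 (stress) and 50.4 and 42.1 (control) in other nuclei. These 3 markers were close to even over the libraries. SMB was not, with 188.2 and 95.9 (stress) and 348.8 and 95.1 CPM (control) in chosen nuclei, against 40.2 and 20.9 (stress) and 92.5 and 20.1 (control) in other nuclei. The nearer upstream region was close to even, with 84.9 and 95.9 (stress) and 93.1 and 95.1 CPM (control) in chosen nuclei. In stress replicate 1 a peak in the SMB body, called in that library alone, added 103.2 CPM in chosen and 21.2 CPM in other nuclei. In control replicate 1 the peak over the start of SYP52 reached into the SMB window and was counted in the score, and in the other libraries it was not. In that region chosen nuclei had 66.1 and 73.1 (stress) and 255.7 and 60.9 CPM (control), against 59.2 and 59.6 (stress) and 67.1 and 65.0 (control) in other nuclei. Only the library whose score used the region was high there.

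Control replicate 1 stood apart from the other libraries in several ways. It had 4229 nuclei within the limits, against 7628 to 8613 in the others, and 19858 peaks, against 24317 to 25001. Its ATAC counts summed to 47853119, against 71738704 to 75473335 in the others. The libraries shared 57 to 118 barcodes per pair, at most 1.54% of the nuclei of a library.

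Whether the label root cap holds was asked of markers that had no part in the choice. Each marker was left out in turn, the nuclei were chosen again by the remaining markers, and the shared regions of the left-out marker were compared between chosen and other nuclei in one fit over all shared regions. BRN2 and RCPG had no shared region, so no fit was read for them. Of all regions in the fits of the other markers, 483 of 91700 were called at an adjusted p under 0.05, which is 0.527%. That share takes in the windows of the markers that chose the nuclei, where a call follows from the choice. Of the 8 regions of left-out markers 0 were called by edgeR, with 1 at an unadjusted p under 0.05.

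Among the NAC factors, the region upstream of BRN1 came nearest. It had 48.7 and 40.9 CPM (here after TMM scaling) in the chosen nuclei of the stress libraries and 38.3 and 38.4 CPM in those of the control libraries, against 34.6 and 34.6 CPM (stress) and 36.6 and 32.9 CPM (control) in other nuclei. It was higher in chosen nuclei in 4 of 4 libraries, with a log2 difference of 0.27 ± 0.13 (SE, 95% interval 0.01 to 0.54, adjusted p = 0.637 by edgeR). The region downstream of BRN1 differed by 0.15 ± 0.13 (adjusted p = 0.839). At SMB the log2 differences were 0.05 (95% interval −0.26 to 0.36) for the nearer region and 0.01 (−0.17 to 0.20) for the region over the SYP52 start. Of the enzymes, CEL5 had 81.7 and 76.7 CPM (stress) and 84.4 and 67.7 CPM (control) in chosen nuclei, against 69.4 and 65.3 CPM (stress) and 65.6 and 73.3 CPM (control) in other nuclei. It was higher in 3 of 4 libraries and lower in control replicate 2 (log2 0.17 ± 0.10, adjusted p = 0.618). BFN1 differed by 0.05 ± 0.12, and the regions of PASPA3 by 0.10 ± 0.12 and 0.01 ± 0.21, with adjusted p values of 0.932, 0.777 and 0.996. Nuclei chosen by some markers were thus not called as more open at the others, and the nuclei are named here by the rule and not as root cap cells. The interval of the region over the SYP52 start lay below the difference of 0.27 seen upstream of BRN1, and those of the other regions included it. Against depth-matched other nuclei the region upstream of BRN1 differed by 0.19 (95% interval −0.08 to 0.47, adjusted p = 0.888), and control replicate 1 turned, with 38.2 CPM in chosen and 44.8 CPM in depth-matched other nuclei. Among nuclei of 3000 to 6000 ATAC counts stress replicate 2 was lower instead, with 33.7 CPM in chosen and 35.4 CPM in other nuclei. At matched depth the region downstream of BRN1 differed by 0.22 and CEL5 by 0.21, and CEL5 was the region with an unadjusted p under 0.05 (adjusted p = 0.791).

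**Figure D1:**
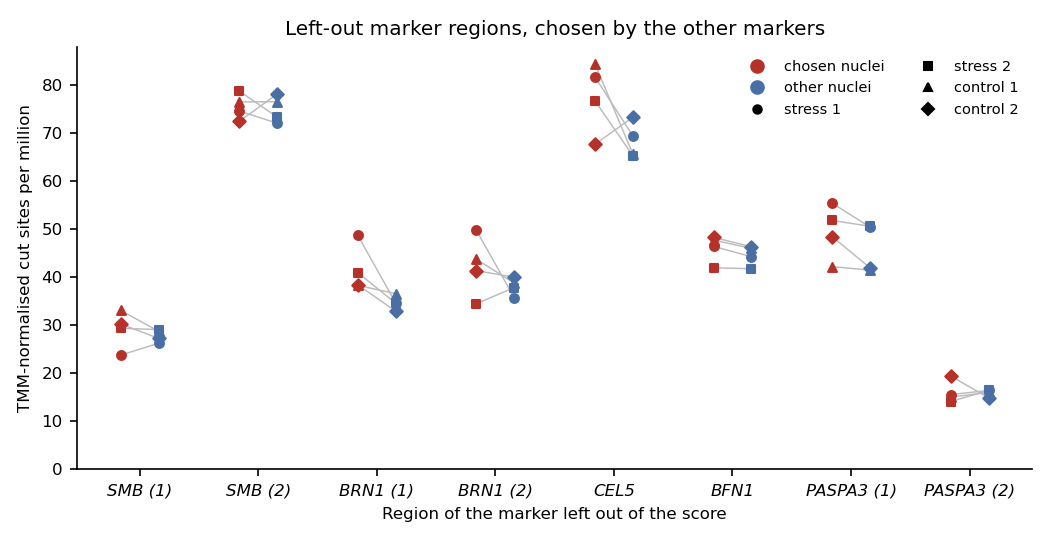
TMM-normalised CPM (vertical axis, from 0) in the 8 shared marker regions, each in nuclei chosen without that marker (red) and in other nuclei (blue), with 1 point per library and a line joining the classes of a library. For most regions the red and blue points overlap, and upstream of BRN1, labelled BRN1 (1), the red points of all 4 libraries lie above the blue points of the same library.

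The chosen nuclei had fewer ATAC counts than the other nuclei. Their median was 4260 and 4304 counts in stress replicates 1 and 2 and 4702 and 4441 in control replicates 1 and 2, against 5574.5 and 5694 (stress) and 7000.5 and 5751 (control) in other nuclei. All chosen medians lay below all other medians, with a mean difference of −1578 ± 482 counts (SD, n = 4, lower in 4 of 4 libraries). The ATAC counts of a nucleus divide its score, so the rule itself favours shallow nuclei, and this difference is a description. RNA counts differed less, with medians of 4361 and 4336 (stress) and 4629 and 4341 (control) in chosen nuclei, against 4582.5 and 4601 (stress) and 5024.5 and 4390 (control) in other nuclei. Their mean difference was −233 ± 143 (SD, n = 4, exact permutation test of the paired differences, two-sided, p = 0.13, the smallest that 4 libraries allow). The median share of ATAC counts near gene starts was 80.2 ± 0.80% in chosen and 80.3 ± 0.82% in other nuclei (SD, n = 4, exact p = 0.13). Since a score of a few counts is a larger share of a shallow nucleus, each comparison of regions was repeated with 5 other nuclei of the same library matched in depth to each chosen nucleus.

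Outside the marker windows, 18332 shared regions were compared between chosen and other nuclei, with counts summed per library and class. The test called 227 of them (1.24%), 168 higher and 59 lower in chosen nuclei. Most of the higher regions, 99 of 168, lay in a stretch of chromosome 2 (chr2:3244537-3510140) that carries a copy of the mitochondrial genome, and 0 of the 59 lower regions did. There, 118 shared regions matched mitochondrial sequence over at least 50% of their bases, and fragments from the insert and from mitochondria cannot be told apart. All 118 had a log2 difference above 0, with a median of 0.38. Against depth-matched other nuclei 0 of 18332 regions were called (0%), with 1292 at an unadjusted p under 0.05 against 2288 in the comparison with all other nuclei. The median of the 118 regions was then −0.06, and 15 of them stayed above 0. Of the 227 called regions, 142 kept their sign at matched depth. With the mitochondrial regions left out of the comparison with all other nuclei, 61 regions were called, 34 higher and 27 lower, and without control replicate 2 the count of 227 became 52.

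The share of ATAC counts in the mitochondrial regions was 1.77% and 1.67% (stress) and 4.84% and 2.27% (control) in chosen nuclei, against 1.44% and 1.42% (stress) and 3.50% and 1.60% (control) in other nuclei. In depth-matched other nuclei it was 1.80% and 1.77% (stress) and 5.23% and 2.30% (control), above the chosen nuclei in 4 of 4 libraries. These are shares of summed counts, and the medians per nucleus were not all in that order. Medians were 0.82% and 0.80% (stress) and 2.83% and 0.87% (control) in chosen nuclei. In depth-matched other nuclei they were 0.76% and 0.72% (stress) and 2.99% and 0.88% (control). Among other nuclei the share of summed counts was lower in the deepest than in the shallowest class in 4 of 4 libraries. Other nuclei of stress replicate 1 had 2.47% at 3000 to under 4000 ATAC counts, 1.61% at 4000 to under 6000, 1.15% at 6000 to under 10000 and 1.15% at 10000 or more. Among the other nuclei of control replicate 1 the shares in these classes were 6.27%, 6.21%, 4.21% and 2.05%. The chosen nuclei did not fall at each step. Those of control replicate 1 had 4.09%, 5.90%, 5.23% and 2.32%, and those of stress replicate 1 had 1.22% at 6000 to under 10000 and 1.71% at 10000 or more, a class of 8 nuclei.

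**Figure D2:**
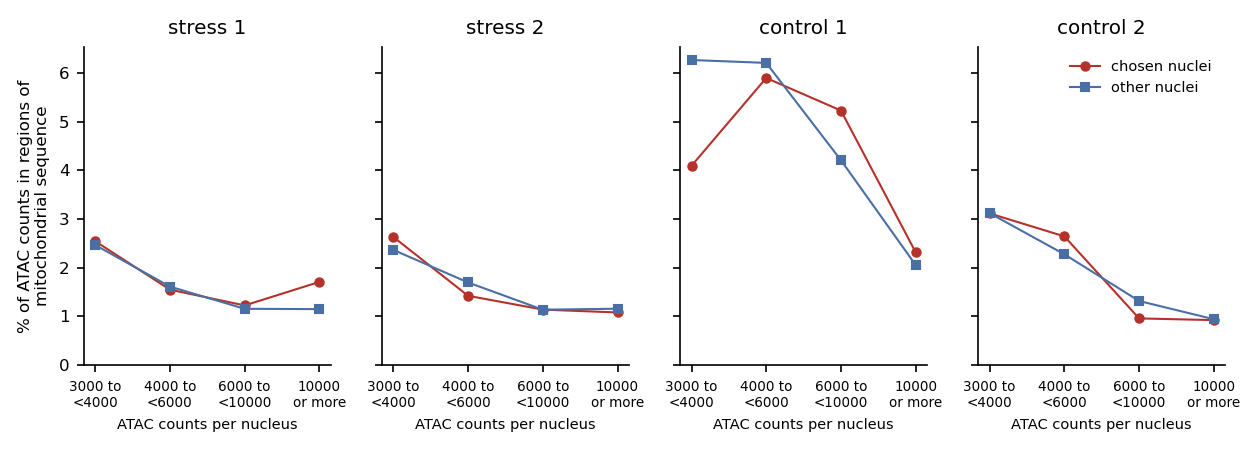
Share of ATAC counts in regions of mitochondrial sequence (vertical axis, percent) by the ATAC counts of the nucleus (horizontal axis, 4 classes), in chosen nuclei (red circles) and other nuclei (blue squares) of each library. The red and blue lines run close together in 3 libraries, apart from the deepest class of stress replicate 1, the share is lower in the deepest than in the shallowest class in 8 of 8 lines, and control replicate 1 has the highest shares.

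**Figure D3:**
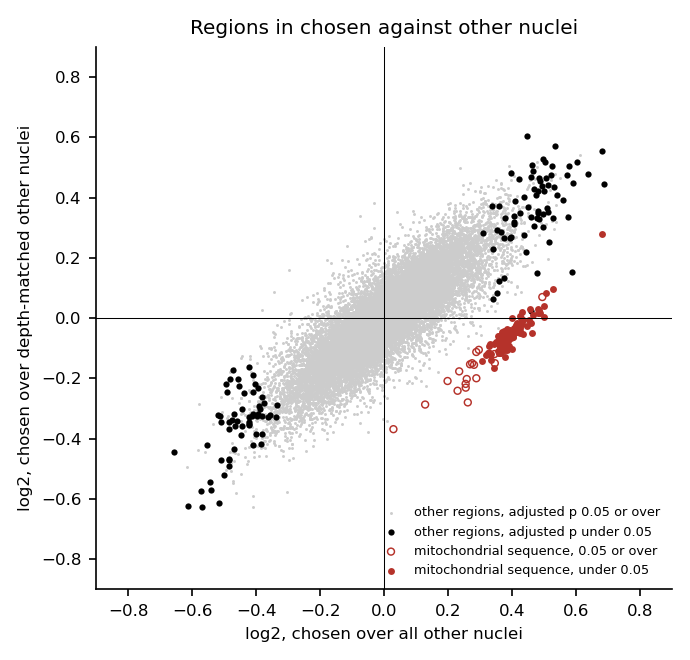
Log2 difference of each of the 18332 regions between chosen and all other nuclei (horizontal axis) and between chosen and depth-matched other nuclei (vertical axis). Points are single regions. The 118 mitochondrial regions (red) are all right of 0 and mostly below 0 at matched depth, with a median of 0.38 and of −0.06, while the called nuclear regions (black) lie near the diagonal.

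Of the mitochondrial regions, that at AT2G07685 had the largest difference, 0.68 ± 0.15 (adjusted p = 0.00132). It had 31.6 and 30.2 CPM (stress) and 78.2 and 34.9 CPM (control) in chosen nuclei, against 22.7 and 20.2 CPM (stress) and 39.8 and 22.5 CPM (control) in other nuclei. At matched depth its difference was 0.28 (adjusted p = 0.727). AT2G07695 was also of this kind, with a difference of 0.53 ± 0.09 that became 0.10 at matched depth. The largest nuclear difference by the rule for named regions was at the start of SWEET1, a sugar transporter of the plasma membrane. SWEET1 had 24.6 and 41.5 CPM (stress) and 48.1 and 44.0 CPM (control) in chosen nuclei, against 14.8 and 27.1 CPM (stress) and 30.1 and 26.9 CPM (control) in other nuclei. In each library the chosen nuclei were higher (log2 0.68 ± 0.15, adjusted p = 0.00203), which the rule for named regions requires. Stress replicate 1 was low in both classes. The difference was 0.55 at matched depth (adjusted p = 0.259). Windows of 150 bases are given for the regions at AT2G07685 (chr2:3307474-3307623) and SWEET1 (chr1:7513964-7514113) and for the region with the largest named fall, in AT2G46300 (chr2:19009652-19009801), to set a mitochondrial copy beside nuclear sequence. Capitals mark bases in a run of 31 or more that also stands in the mitochondrial genome. All 150 bases of the AT2G07685 window did, at positions 325596 to 325745 of the plus strand of that genome.
AT2G07685: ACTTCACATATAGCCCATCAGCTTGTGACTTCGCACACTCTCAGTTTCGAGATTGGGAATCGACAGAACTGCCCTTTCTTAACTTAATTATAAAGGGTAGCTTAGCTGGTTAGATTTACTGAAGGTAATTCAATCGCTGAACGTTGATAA
SWEET1: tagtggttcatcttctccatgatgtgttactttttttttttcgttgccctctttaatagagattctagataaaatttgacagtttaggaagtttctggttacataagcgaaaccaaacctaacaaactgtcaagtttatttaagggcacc
AT2G46300: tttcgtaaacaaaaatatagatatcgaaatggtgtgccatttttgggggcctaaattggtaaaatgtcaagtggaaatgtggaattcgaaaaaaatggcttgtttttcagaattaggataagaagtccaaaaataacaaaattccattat

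The other named regions that were higher in chosen nuclei ranged from 0.51 to 0.60 on the log2 scale. They lay at LOL1, a zinc finger protein that promotes cell death, ABCC13, an ABC transporter, DOF4.3, a Dof transcription factor, RBP47C, an RNA-binding protein, SAMC2, a carrier of S-adenosylmethionine, TPR9, AMY2, an alpha-amylase, and at AT1G25422, AT1G73970, AT3G23740, AT1G53040 and AT1G47485. The region upstream of LOL1 had 35.2 and 24.9 CPM (stress) and 51.8 and 34.9 CPM (control) in chosen nuclei, against 24.1 and 21.5 CPM (stress) and 28.0 and 20.9 CPM (control) in other nuclei (log2 0.60 ± 0.16, adjusted p = 0.0156). Its difference at matched depth was 0.52 (adjusted p = 0.395). AT1G25422 had 51.6 and 54.0 CPM (stress) and 96.1 and 65.4 CPM (control) in chosen nuclei, against 39.6 and 38.8 CPM (stress) and 48.2 and 47.6 CPM (control) in other nuclei (0.58 ± 0.12, adjusted p = 0.000343), so that the classes did not overlap. ABCC13 lies beside the mitochondrial stretch, and its difference of 0.59 became 0.15 at matched depth. Regions that were lower in chosen nuclei had differences of −0.51 to −0.61. They lay at AT2G46300, AT3G52520, ATL2, a RING-type ubiquitin ligase, Rap2.6L, an ERF transcription factor, AT5G24880, AT2G37600, AT5G59680, AT3G04925, AT3G57380 and HB17, a homeodomain-leucine zipper factor. The region in AT2G46300 had 15.8 and 19.0 CPM (stress) and 19.8 and 24.6 CPM (control) in chosen nuclei, against 23.9 and 29.8 CPM (stress) and 36.7 and 32.2 CPM (control) in other nuclei (−0.61 ± 0.17, adjusted p = 0.0364). HB17 had 40.4 and 40.9 CPM (stress) and 39.6 and 57.6 CPM (control) in chosen nuclei, against 64.1 and 67.0 CPM (stress) and 61.4 and 61.8 CPM (control) in other nuclei (−0.51 ± 0.12, adjusted p = 0.00336). All 25 named regions kept their sign at matched depth, where none passed the threshold.

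The nuclear regions that were called fell on different chromosomes by direction. Of 4768 nuclear regions tested on chromosome 1, 58 were called higher and 2 lower. On chromosome 3 it was 4 higher and 19 lower of 3585, on chromosome 5 it was 1 higher and 25 lower of 4314, on chromosome 2 it was 3 higher and 10 lower of 2824, and on chromosome 4 it was 3 higher and 3 lower of 2722. All marker regions lie on chromosomes 1 and 4, and 80.7% of the counts that made up the score of the chosen nuclei were on chromosome 1 and 19.3% on chromosome 4. Of the 13 named nuclear regions that were higher, 10 are on chromosome 1, and of the 10 that were lower, 0 are. This pattern was noticed in the called regions and then measured on the same nuclei, so the values that follow are a description.

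With the marker windows and the mitochondrial regions left out, chromosome 1 held 27.5% and 27.0% of the ATAC counts of chosen nuclei in the stress libraries and 29.2% and 28.0% in the control libraries, against 26.5% and 26.3% (stress) and 26.4% and 26.4% (control) in other nuclei. The shares of the chosen nuclei lay above those of the other nuclei in 4 of 4 libraries. They were lower in the stress than in the control libraries. In chosen nuclei the score held 1817 and 1723 counts on chromosome 1 (stress), and 460 and 498 on chromosome 4. In the control libraries it held 1229 and 1672 on chromosome 1, and 212 and 367 on chromosome 4. Only in control replicate 1 did it include the region over the SYP52 start. Whether the order of the shares follows stress or the make-up of the score was not tested. The mean log2 ratio of the chromosome 1 share was 0.080 ± 0.048 (SD, n = 4, exact p = 0.13), and 0.081 ± 0.053 against depth-matched other nuclei. Chromosome 4 was higher in chosen nuclei by 0.014 ± 0.005, also in 4 of 4 libraries, while chromosomes 2, 3 and 5 were lower in 4 of 4 libraries, by a log2 ratio of −0.031 ± 0.042, −0.043 ± 0.027 and −0.047 ± 0.016. The value on chromosome 2 was −0.0099 without control replicate 1, where the ratio was −0.094. The direction followed the chromosome of the marker when the score was built from fewer markers. Nuclei chosen by the markers on chromosome 1 alone had a higher share of counts on chromosome 1 (0.096 ± 0.045) and a lower share on chromosome 4 (−0.033 ± 0.017). Nuclei chosen by PASPA3 alone, which is on chromosome 4, had a higher share on chromosome 4 (0.074 ± 0.019) and a lower share on chromosome 1 (−0.018 ± 0.009), each in 4 of 4 libraries and with the same signs at matched depth.

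**Figure D4:**
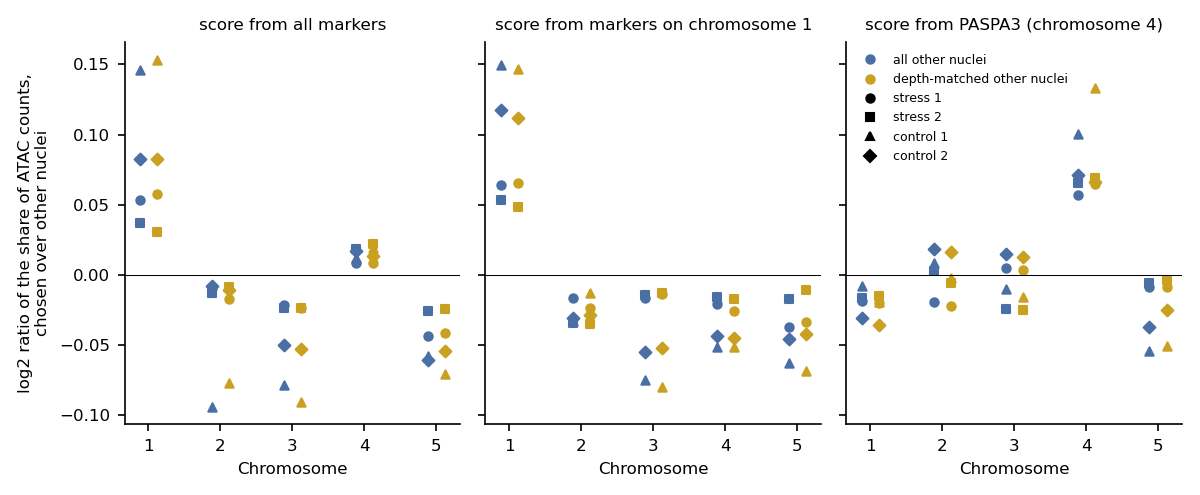
Log2 ratio of the share of ATAC counts on each chromosome (horizontal axis) between chosen nuclei and all other nuclei (blue) or depth-matched other nuclei (yellow), with 1 symbol per library, for the score from all markers, from those on chromosome 1 and from PASPA3. The points above 0 in all libraries are on chromosomes 1 and 4 in the left panel, on chromosome 1 in the middle panel and on chromosome 4 in the right panel.

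The shift was not confined to the neighbourhood of the markers. At matched depth the median log2 difference of nuclear regions was 0.06 within 10 kb of a marker region (21 regions), 0.10 from there to 100 kb (153 regions), 0.09 to 1 Mb (1581 regions) and 0.05 farther away on the same chromosome (5735 regions). On chromosomes without a marker region it was −0.04 (10723 regions). The classes by distance pool chromosomes 1 and 4, whose medians over all nuclear regions at matched depth were 0.077 and 0.020. Distance and chromosome are therefore mixed in these values. SWEET1 lies 583 kb, LOL1 303 kb and TPR9 34.7 kb from the nearest marker region, and AT1G73970 lies 2121 kb away. Scores built in the same way from markers of other cell types also moved some of the shares, with smaller means than the root cap score had on chromosome 1. Nuclei chosen by trichoblast markers, with 37.9% of the score's counts on chromosome 1, had a log2 ratio of 0.043 ± 0.011 there, in 4 of 4 libraries, and in stress replicate 2 their ratio of 0.039 was above the 0.037 of the root cap score. Nuclei chosen by endodermis markers, with 36.5% of the score's counts on chromosome 1, had a log2 ratio of 0.021 there, and nuclei chosen by cortex markers, with 50.7% on chromosome 5, had 0.025 there. What moves the chromosome shares, and how much of the differences at single regions they account for, was not tested.

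Gene accessibility was summed over the tested regions of each gene body and the 2 kb upstream, which lets neighbouring genes share a region. The test called 381 of 23635 genes (1.61%), 278 higher and 103 lower in chosen nuclei, and 144 of the 278 were genes with regions of mitochondrial sequence. Against depth-matched other nuclei 0 genes were called (0%), with 1917 at an unadjusted p under 0.05. The lists of root cap genes, taken in part from the study's marker table, held 0 called genes: 4 of 6 lateral root cap genes, 18 of 29 columella genes, 4 of 6 genes of programmed cell death and 7 of 14 genes of root cap development and gravity sensing were tested. Their median log2 differences were −0.05, −0.01, −0.01 and 0.00, beside −0.00 over all genes tested. Among lateral root cap genes scpl18, which encodes a serine carboxypeptidase-like protein, differed by 0.40 (unadjusted p = 0.0063) and by 0.49 at matched depth, and the other 3 by −0.01 to −0.11. In the development list CLE40, a signalling peptide, differed by 0.30 (unadjusted p = 0.0084) and PIN3, an auxin efflux carrier of the columella, by 0.26 (unadjusted p = 0.0458). At matched depth CLE40 was at 0.14 (unadjusted p = 0.234) and PIN3 at 0.11 (unadjusted p = 0.428). Of the same list ARF10 and ARF16, auxin response factors, differed by −0.09 and 0.00. The gene sums were not adjusted for the shift in chromosome shares. Its part in the values of single genes, here and in the lists below, was not tested.

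The test called 2 genes of the other lists, both lower in chosen nuclei. IDL1 was the 1 call among 9 tested genes of cuticle and wall separation, a list close to the root cap lists in theme. PHP was the 1 call among 11 tested genes of the study's columella list of histone H3K4 methylation. IDL1, a secreted peptide of cell separation, had 18.4 and 13.8 CPM (stress) and 14.4 and 10.6 CPM (control) in chosen nuclei, against 20.7 and 18.8 CPM (stress) and 23.5 and 19.5 CPM (control) in other nuclei (−0.52 ± 0.15, adjusted p = 0.0443, and 0.113 at matched depth). The lowest difference of its list was −0.52 against all other nuclei and −0.62 against depth-matched ones. PHP, a subunit of the PAF1 complex, had 54.5 and 42.8 CPM (stress) and 43.6 and 48.4 CPM (control) in chosen nuclei, against 61.8 and 60.2 CPM (stress) and 57.6 and 54.9 CPM (control) in other nuclei (−0.31 ± 0.09, adjusted p = 0.0386, and 0.595 at matched depth). For both genes the chosen and the other nuclei did not overlap. The 9 lists of other cell types (trichoblast, atrichoblast, cortex, endodermis, xylem, phloem, stele and pericycle, quiescent center and dividing cells) held 0 called genes, with medians of −0.06 (stele and pericycle) to 0.11 (phloem). The lists of osmotic stress and abscisic acid response and of the study's osmotic and auxin genes also held 0, with medians of −0.09 and −0.08.

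RNA had no part in the score. The rows of the RNA tables carry no gene names, so only numbers of rows are given. Of 19690 rows tested, 21 were called between chosen and other nuclei (0.107%), 4 higher and 17 lower, and at matched depth 2 of 17678 were (0.0113%). When the score came from the NAC genes alone 1598 rows were called against all other nuclei, and 0 against depth-matched ones. The same steps were run with markers of other cell types. At matched depth 45 RNA rows were called for trichoblast markers, 341 for endodermis markers and 59 for cortex markers, against 2 for the root cap markers. The regions called at matched depth were 12, 65 and 58 for these 3 scores, against 0. All 12 and all 58 were lower in the nuclei so chosen, and of the 65 for endodermis markers 18 were higher and 47 lower. Compared with all other nuclei the order was another, with 0 regions for trichoblast (1461 at an unadjusted p under 0.05 by edgeR), 214 for endodermis and 1 for cortex markers, against 227 for the root cap markers, and with 4, 477 and 277 RNA rows, against 21. The scores rest on unlike markers, and those of trichoblast and endodermis on more peaks, so their counts are not strictly comparable. Per library there were 16 to 22 peaks for trichoblast, 14 to 29 for endodermis and 8 to 11 for cortex markers. Root cap marker peaks merged into 10 regions across libraries, which is close to the number of cortex peaks per library.

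Stress was then compared with control within the chosen nuclei, over 2 libraries each. Of 18332 regions, 61 were called (0.33%), 11 higher and 50 lower under stress, and 1645 had an unadjusted p under 0.05. Mitochondrial sequence made up 40 of the 50 lower regions and 0 of the 11 higher ones. The median log2 difference of the 118 mitochondrial regions was −0.92 in chosen nuclei and −0.68 in other nuclei, all of them below 0 in both classes. The share of mitochondrial counts in control replicate 1 (4.84% of the counts of chosen nuclei, against 2.27% in control replicate 2) moved with this difference, and without control replicate 1 the count of called regions was 2. Without stress replicate 1 it was 4, without stress replicate 2 it was 0, and without control replicate 2 it was 361. With the mitochondrial regions left out, 6 regions were called, 3 higher and 3 lower, and 5 of these were among the 61. Most of the nuclear regions named below were thus not called in that fit. Among other nuclei 425 regions were called, 331 higher and 94 lower, with 4583 at an unadjusted p under 0.05, and summed counts there were far higher.

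Of the named regions that were higher under stress, that at the start of AT4G08525 differed most. In chosen nuclei it had 62.1 and 72.7 CPM under stress, against 26.3 and 29.0 CPM in control (log2 1.27 ± 0.26, adjusted p = 0.00158). The difference in other nuclei was 0.82 (adjusted p = 0.0101). The region upstream of AT3G20015 had 40.4 and 51.4 CPM under stress, against 18.8 and 19.4 CPM in control (1.26 ± 0.32, adjusted p = 0.0381), while other nuclei averaged 31.5 ± 0.66 CPM under stress, against 28.7 ± 1.08 CPM in control (SD, n = 2 each). Its difference of differences was 1.13 (adjusted p = 0.388), so no unequal change was called. SHOT1, a protein of mitochondria whose loss raises heat tolerance, had 137.0 and 101.1 CPM under stress, against 59.1 and 77.4 CPM in control (0.78 ± 0.20, adjusted p = 0.0414). The other named higher regions, at AT4G06935, AT3G51210, TRM9, AT1G06053, AT5G54020 and AT2G22880, had differences of 0.86 to 1.25.

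The largest named fall under stress was in mitochondrial sequence at AT2G07826, with 64.4 and 53.2 CPM under stress, against 219.5 and 98.1 CPM in control (−1.40 ± 0.21, adjusted p = 9.50e-07). Control replicate 1 was far above the other 3 libraries, and the groups did not overlap, which the rule for named regions requires. AT2G07631, AT2G07739, AT2G07784, AT2G07626 and AT2G07738 were also mitochondrial and had differences of −1.19 to −1.35. Nuclear regions fell at RANGAP2, an activator of the Ran GTPase at the nuclear envelope, and at AT4G09890, AT3G12840 and AT4G19500. RANGAP2 had 20.5 and 13.0 CPM under stress, against 30.9 and 50.3 CPM in control (−1.30 ± 0.34, adjusted p = 0.0466), and −0.86 in other nuclei. AT4G09890 had 18.2 and 25.4 CPM under stress, against 63.8 and 40.7 CPM in control (−1.23 ± 0.30, adjusted p = 0.0224), and its difference in other nuclei was −1.19. Windows of 150 bases of the leading regions are given, at AT4G08525 (chr4:15358273-15358422) and AT3G20015 (chr3:6982800-6982949), which were higher under stress, and at AT2G07826 (chr2:3360825-3360974), which was lower. Capitals again mark mitochondrial sequence, here all 150 bases of AT2G07826, on the minus strand at positions 70152 to 70301 of that genome.
AT4G08525: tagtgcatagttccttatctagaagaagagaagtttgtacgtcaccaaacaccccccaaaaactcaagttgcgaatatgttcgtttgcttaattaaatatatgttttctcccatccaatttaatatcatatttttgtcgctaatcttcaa
AT3G20015: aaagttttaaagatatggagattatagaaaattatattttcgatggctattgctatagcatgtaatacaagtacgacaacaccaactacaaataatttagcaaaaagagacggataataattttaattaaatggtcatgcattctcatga
AT2G07826: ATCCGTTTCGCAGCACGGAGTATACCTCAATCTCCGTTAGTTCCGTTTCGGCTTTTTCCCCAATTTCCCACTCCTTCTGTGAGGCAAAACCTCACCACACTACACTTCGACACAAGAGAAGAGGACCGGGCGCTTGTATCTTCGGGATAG

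**Figure D5:**
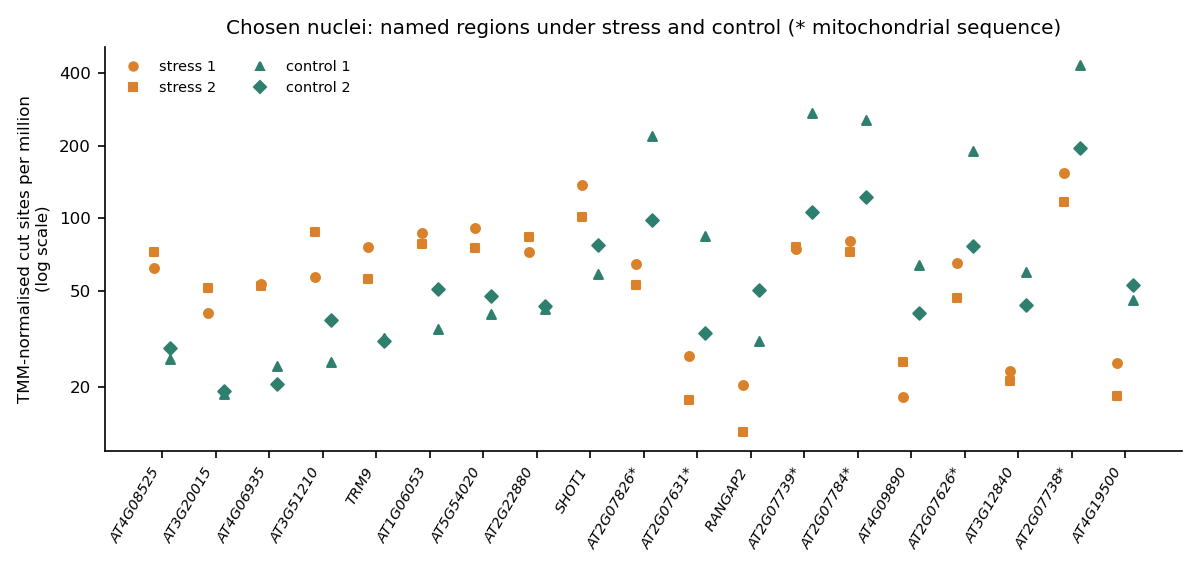
TMM-normalised CPM (vertical axis, log scale) of the 19 named regions in the chosen nuclei of the stress (orange) and control libraries (green), with 1 symbol per library and an asterisk for mitochondrial sequence. By the rule for named regions, stress lies above control in the 9 regions on the left and below it in the 10 on the right. Control replicate 1 is highest in the mitochondrial regions.

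Whether stress changed chosen nuclei otherwise than other nuclei was tested as the difference of the 2 changes, and 0 of 18332 regions were called (0%), with 1044 at an unadjusted p under 0.05 by edgeR, and 0 by DESeq2. At the level of genes 119 of 23635 were called between stress and control in chosen nuclei (0.503%), 18 higher and 101 lower, of which 74 were of mitochondrial sequence. No gene of any list was among them. Median log2 differences were −0.13 for lateral root cap genes (4 tested), −0.04 for columella genes (18 tested), −0.20 for programmed cell death (4 tested), 0.07 for osmotic stress and abscisic acid response (16 tested) and 0.12 for the study's osmotic and auxin genes (7 tested), beside 0.00 over all genes. The last list holds genes of osmotic stress and of auxin together, so its median mixes both. The difference of the 2 changes was called for 10 of 23635 genes (0.0423%), 9 of them of mitochondrial sequence.

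RNA was compared between stress and control in the chosen nuclei as well. Of 16118 rows tested, 2651 were called (16.4%), 1407 higher and 1244 lower under stress. Leaving out a library gave 242 called rows without stress replicate 1, 138 without stress replicate 2, 5404 without control replicate 1 and 3970 without control replicate 2. Among chosen nuclei with at least 6000 ATAC counts 374 rows were called. Median ATAC counts of the chosen nuclei were 4260 and 4304 under stress, against 4702 and 4441 in control, so that the means differed by −289.5 (p = 0.33 by a two-sided exact permutation test, the smallest that 2 against 2 libraries allow). Median RNA counts were 4361 and 4336 under stress, against 4629 and 4341 in control, a difference of −136.5 (exact p = 0.667).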

How the data were processed

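Root tip nuclei of 4 libraries, 2 of stress and 2 of control, were profiled for ATAC and RNA. Per the submitters' processing notes Cell Ranger ARC 2.0.2, Signac 1.7.0 and Seurat 4.3.0 were used with build TAIR10. The authors deposited raw counts, whole numbers that were not normalized, with peaks called in each library alone and all barcodes kept. The peak lists gave the coordinates. Gene positions and sequences came from RefSeq on TAIR10.1, which has the same nuclear sequence: 61.0% to 64.6% of peaks overlapped a gene start, against 25.2% to 25.6% after a shift by 10 kb. Peaks were merged across libraries, and shared regions were those with a peak in all 4. Nuclei were limited to 3000 to 100000 ATAC and 1000 to 25000 RNA counts. Doublets were not called or removed.

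Nuclei are not replicates, so counts were summed per library and class and compared with edgeR 4.0.16 in R 4.3.3, with its quasi-likelihood test (TMM, filterByExpr, two-sided, Benjamini-Hochberg over all features tested, threshold 0.05), with library as a term between classes (3 residual degrees of freedom) and without it between stress and control (2 residual degrees of freedom). Single values per library were compared by exact permutation tests. Named regions passed the threshold with 1 direction in all libraries (or separate groups) and at least 20 CPM, at most 15 higher and 10 lower between classes and 10 in each direction between stress and control. Regions with at least 50% of bases in words of 31 bases shared with the mitochondrial genome were called mitochondrial. The scripts were checked on simulated data. The markers, the lists and these rules were chosen with earlier results of these data known. DESeq2 1.42.0, other scores, depth limits, other region sets and leaving out each library were tried as alternatives. Matching in depth, the chromosome shares, the other marker scores and the test of unequal change per gene were added after seeing the data. Replicate numbers were not used as pairs in the main test of stress. The correlation of deviations between them was 0.0107, but 2 libraries per group cannot exclude a shared day.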

Additional observations from a re-analysis of the deposited data

Results flagged for a closer look

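At the level of genes, the stress change in chosen nuclei differed from that in other nuclei for 10 genes, by a test of the difference itself (edgeR, adjusted over 23635 genes) that was added after seeing the data. For 1 gene the change was more positive in chosen nuclei. AT2G24660 had 52.6 and 57.9 CPM under stress, against 34.6 and 33.4 CPM in control, in chosen nuclei, and 43.4 and 44.2 CPM under stress, against 49.5 and 46.1 CPM in control, in other nuclei, a difference of changes of 0.82 on the log2 scale (adjusted p = 0.0418).

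The other 9 genes all lie in the mitochondrial stretch of chromosome 2, share regions with each other and changed more negatively in chosen nuclei. The differences of changes were −0.47 at AT2G07712 and AT2G07786, −0.40 at AT2G07738, AT2G07759 and AT2G07761, −0.38 at AT2G07715, −0.37 at AT2G07642, −0.35 at AT2G07711 and −0.28 at AT2G07806, with adjusted p values of 0.0123 to 0.0310. AT2G07711 had 561.6 and 539.2 CPM under stress, against 1471 and 759.3 CPM in control, in chosen nuclei, and 471.4 and 470.2 CPM under stress, against 987.1 and 510.4 CPM in control, in other nuclei. Control replicate 1 was the highest library in both classes, and the part of depth and of that library in these differences was not tested.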

How the results depend on the processing

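Of 227 regions called between chosen and other nuclei, 120 were called by DESeq2, all among the 227. The count was 113 with the top 2% of scores, 67 with shared regions only in the score, 353 with the NAC genes, 2 with the enzyme genes, 0 with the score as an excess over expectation, 0 in nuclei with 3000 to 6000 ATAC counts, 1 with at least 6000, and 0 without the library term. It was 0 at matched depth, 1 with the NAC score at matched depth and 61 without mitochondrial regions. Leaving out 1 library gave 52 to 167. For stress against control the 61 regions became 35 (DESeq2), 0 (top 2%), 95 (top 10%), 21 (shared-region score), 12 (excess), 0 (3000 to 6000), 0 (at least 6000), 0 (all merged regions) and 6 (without mitochondrial regions), and 0 to 361 without 1 library. The difference of the changes, with 0 regions, became 2 (excess), 2 (NAC score) and 0 to 4 without 1 library. RNA rows between classes, 21, became 49 (DESeq2), 422 (no filter), 156 (top 2%), 0 (top 10%), 0 (shared-region score), 1 (excess), 1598 (NAC score), 4 (3000 to 6000), 0 (at least 6000), 0 (no library term), 2 (matched depth), 0 (NAC score at matched depth) and 0 to 28 without 1 library. RNA rows under stress, 2651, became 1155 (DESeq2), 1321 (top 2%), 374 (at least 6000) and 138 to 5404 without 1 library. The causes were not tested.

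Some directions reversed. With the NAC score AT2G46300 was at 0.036, and at 0.13 at matched depth, where AT3G52520 was at 0.048 and HB17 at 0.018. AT4G19500 was at 0.19 under stress with the NAC score. Among left-out markers, the nearer SMB region was at −0.072 and BFN1 at −0.059 in nuclei of 3000 to 6000 counts. The SMB region over the SYP52 start was at −0.034 at matched depth and between −0.020 and 0.060 without 1 library. The region over the PASPA3 start was at −0.12 (3000 to 6000), −0.11 (matched depth) and between −0.13 and 0.087 without 1 library. The stress difference in median RNA counts ran between −280.5 and 7.5 without 1 library, and 7.5 was the value without control replicate 1. Whether libraries of the same replicate number share more than the number is not known. With the replicate block, 54 regions (12 higher, 42 lower) and 2486 RNA rows were called under stress. The log2 ratio on chromosome 1 was 0.058 to 0.094 without 1 library.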
